A study of Homo sapiens with 3 samples.

Results

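Natural killer (NK) cells read the surface of a possible target through activating receptors, and the 10 genes described here encode the ligands that tumour cells show to them. They were taken by gene symbol from a table of 60605 genes: MICA, MICB, ULBP1, ULBP2, ULBP3, RAET1E, NECTIN2, PVR, NCR3LG1 and CD58. All 10 had a row in the table. The cells were of the line RCC4, derived from a human clear cell renal carcinoma and without functional VHL protein, and had been transduced with a lentiviral Cas9 vector. The single group had received IFN-gamma (1000 U/mL) and TNF (25 ng/mL) together for 24 h, in 3 biological replicates of 3 flasks each. Untreated cells were not analysed here, so every value is a level in treated cells, not a response to the cytokines.

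MICA, MICB and the ULBP and RAET1 proteins bind NKG2D, a receptor of NK cells and cytotoxic T cells. They resemble MHC class I heavy chains in fold but do not present peptide, and stress, DNA damage and heat shock are known to raise several of them. PVR and NECTIN2 are adhesion molecules of the nectin group that bind the activating receptor DNAM-1 (CD226) and also the inhibitory receptor TIGIT. NCR3LG1, also called B7-H6, binds NKp30, and CD58 binds CD2, an adhesion and costimulatory receptor. Transcript levels do not measure the surface protein, which can also be shed.

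The libraries held 26264283 to 33458691 reads assigned to genes, and 11266 genes reached at least 1 CPM (reads per 1e6 reads, TMM-scaled) in each, which is called detected below. All 7 renal carcinoma markers examined were detected, PAX8 and CA9 among them. Of 10 NK and T cell markers 0 were detected. PTPRC, CD3E and CD2 were listed at 0 reads in every library and the summed level of the 10 was 0.517 to 0.736 CPM. In 1 of the 10, at least 80% of the exon bases lie inside the spans of other genes, where reads were rare. Of 5 myeloid markers 2 were detected, CSF1R and ITGAM, with CD14 near 0 and LYZ and TYROBP listed at 0, and the 5 summed to 5.08 to 6.11 CPM. Of 3 endothelial markers 0 were detected. Replicate 1 stood apart from replicates 2 and 3 over the whole table, so results that turn on it are given with and without it.

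The sequences below are shown because MICA and MICB lie close together on chromosome 6 and differ in whether another gene's span covers them. Both are RefSeq reference stretches on the plus strand of GRCh38.p14, from 250 to 61 bases before the RefSeq start site, at chr6:31403345-31403534 for MICA and chr6:31497895-31498084 for MICB. Capitals mark a heat shock element core (GAANNTTC) and a GC box (GGGCGG, read here on the opposite strand).
MICA: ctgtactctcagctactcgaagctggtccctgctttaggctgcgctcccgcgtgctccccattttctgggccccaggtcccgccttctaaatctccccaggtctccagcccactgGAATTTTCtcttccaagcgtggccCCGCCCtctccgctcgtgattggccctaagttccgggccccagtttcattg
MICB: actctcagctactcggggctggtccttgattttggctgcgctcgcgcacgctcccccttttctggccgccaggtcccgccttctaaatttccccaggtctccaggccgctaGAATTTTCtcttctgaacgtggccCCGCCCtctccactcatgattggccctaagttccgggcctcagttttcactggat

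Of 186 aligned bases in these stretches 164 were identical (88.2%). The MICA start site lies inside the span of the noncoding gene HCP5, and the MICB start site lies outside the spans of other genes. In windows of 250 bases before the start site, on both strands, the heat shock element core was found in 2 of the 10 genes, MICA and MICB, and in 5.78% of 35116 RefSeq promoter windows. The GC box was found in 8 of the 10 and in 42.6% of all windows. The NF-kappa-B motif was found in 2 of the 10, ULBP1 and ULBP3, with the same letters GGAGCATCCC in each, and in 9.96% of all windows. The interferon-gamma activated site (TTCNNNGAA) was found in a window of RAET1E and in 6.57% of all windows, and the core of the interferon-stimulated response element in 0 of the 10 and in 3.02%. A match is a description of these letters, and its absence says nothing of other positions.

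Of the 10 ligand genes 8 were detected, against 51.4% of 19861 protein-coding genes. RAET1E and PVR were listed at 0 reads in each library. Levels between genes are compared as RPKM, the CPM per kilobase of the union of exons. The order ran from NECTIN2 through MICB, CD58, ULBP2, ULBP3, ULBP1 and MICA to NCR3LG1, from a mean of 22.6 RPKM to one of 0.192 RPKM. The median over the 10 genes was 3.97 RPKM, against 0.482 RPKM over all protein-coding genes.

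**Figure D1:**
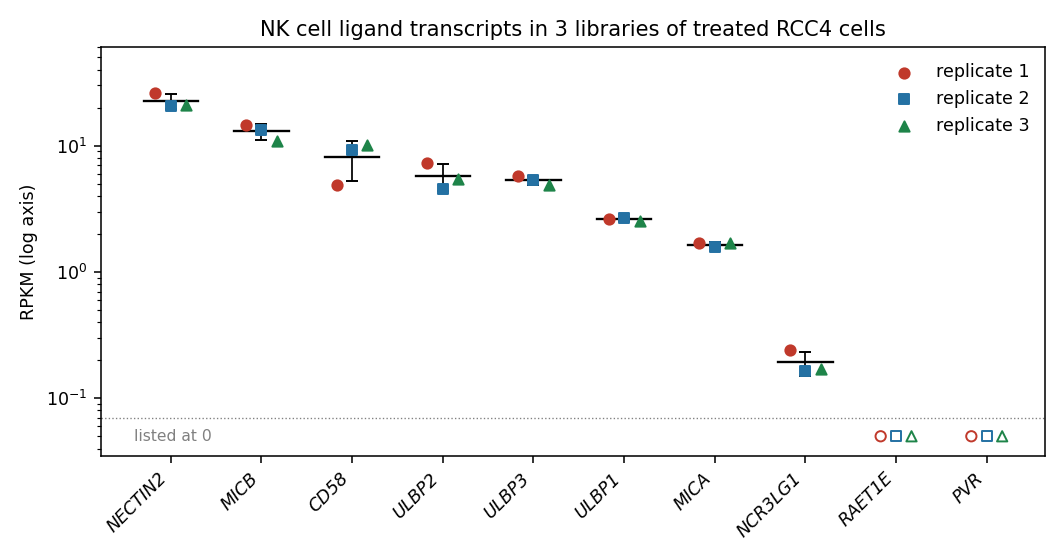
RPKM of each NK cell ligand gene (log axis) in replicates 1, 2 and 3 of treated RCC4 cells; black lines are means with SD over 3 libraries, and open symbols are genes listed at 0. Of the 8 detected genes NECTIN2 is highest at a mean of 22.6 RPKM. CD58 is the gene whose replicate 1 lies farthest below the other libraries. RAET1E and PVR are listed at 0, with their exons wholly inside the spans of other genes.

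MICB was the highest of the NKG2D ligands as measured. It had 1117, 1010 and 1058 reads in replicates 1, 2 and 3, or 14.7, 13.3 and 10.9 RPKM (13.0 ± 1.94, SD, n = 3). The gene lies at chr6:31494881-31511124 (GRCh38, plus strand), and 0 of its 2798 exon bases fall inside another gene's span. Among the 5 detected NKG2D ligands MICB made up 45.7% ± 2.82 of the summed RPKM and 58.9% ± 2.79 of the reads. It stood above ULBP2, ULBP3, ULBP1 and MICA in every library.

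MICA, its close relative, had 109, 102 and 140 reads, or 1.68, 1.57 and 1.69 RPKM (1.65 ± 0.064, SD, n = 3). The libraries differed little, and all 3 values were below every value of MICB. Ratios were formed on the log2(RPKM + 0.1) scale, which understates those of low genes. The log2 ratio MICB/MICA was 3.05, 3.00 and 2.62 in the replicates, a mean of 2.89 ± 0.24 or 7.42-fold. It fell to 1.56 ± 0.238 over the exon length outside other genes' spans. That setting divides all reads of a gene by the shorter length, so it is not a level measured on those bases. A ratio is called past the replicate spread here when all 3 libraries have the same sign and the mean exceeds 2 SD, which MICB/MICA does. Where a replicate is left out, the rule is applied to the 2 libraries that remain. An SD of 2 values is a weak measure of spread. An exact sign-flip test over 3 libraries cannot go below a two-sided p of 0.25, so no p-value is given for ratios.

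Most exon bases of MICA lie within the span of another gene. MICA lies at chr6:31399784-31415315 on the plus strand, and 1468 of its 2386 exon bases (61.5%) fall inside the span of HCP5 (chr6:31400702-31477506), a noncoding gene on the same strand. Only 62 of these bases lie on exons of HCP5. Of 3 annotated MICA transcripts 2 lie wholly inside that span, and the 918 bases outside it all belong to the 5′ exon of the remaining transcript. HCP5 itself had 0, 2 and 4 reads. With all of its reads set over the 918 bases outside that span, MICA stood at 4.28 ± 0.166 RPKM. The share of MICA among the 5 detected NKG2D ligands then went from 5.87% ± 0.704 to 13.9% ± 1.52. Both values assume that every MICA read fell outside the span, which was not measured.

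Over the whole table, reads were rare in genes wholly inside other spans, but not in genes partly inside. Of 2113 protein-coding genes with all exon bases inside the spans of others, 1.94% were detected, while 52.4% were among those without any such overlap. Where under 5% of the exon bases lay on exons of the other gene, 854 of 856 such genes were listed at 0. Of 178 protein-coding genes with 60 to 65% of their exon bases inside, as in MICA, 64.0% were detected, and of 271 with 35 to 40% inside, as in NECTIN2, 69.0% were. How much of the MICA signal came from either part of its exons was not measured. How features were defined for counting is not given in the sources used here, and whether the authors counted over spans was not tested.

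MICA and MICB are alike in sequence but shared few exact 50-base words. Their coding sequences matched at 92.1% of 989 aligned bases. The longest coding stretch identical in both has 71 bases, within the exon at chr6:31412079-31412149 of MICA and chr6:31507154-31507224 of MICB. It is shown as an example of where a short read fits either gene.
MICA and MICB: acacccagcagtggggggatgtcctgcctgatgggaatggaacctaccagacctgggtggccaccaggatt
Of all 50-base words in MICA transcripts 2.43% also occurred in transcripts of other genes, as did 2.86% of those of MICB. Of 100-base words 0 were shared for either gene. Exact words do not show how reads with mismatches were placed.

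The ULBP genes, whose products bind NKG2D and are mostly held in the membrane by a lipid anchor, were lower than MICB, and ULBP1 was lower than ULBP2 and ULBP3. ULBP2 had 267, 166 and 255 reads, or 7.29, 4.53 and 5.43 RPKM (5.75 ± 1.41, SD, n = 3). ULBP3 had 154, 144 and 168 reads, or 5.74, 5.37 and 4.89 RPKM (5.33 ± 0.427). Their order was not resolved: ULBP2 was higher in replicates 1 and 3, ULBP3 in replicate 2, and the log2 ratio ULBP2/ULBP3 was 0.083 ± 0.295, or -0.045 without replicate 1.

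ULBP1 had 224, 230 and 277 reads, or 2.63, 2.69 and 2.53 RPKM (2.62 ± 0.081, SD, n = 3), the smallest relative spread of the detected ligands. Its coefficient of variation was 3.08%, against a median of 19.9% over 1575 detected genes of like CPM. The small spread did not hold with GC correction, where the SD of its log2 level went from 0.043 to 0.273. ULBP3 exceeded ULBP1 by 1.00 ± 0.093 on the log2 scale, past the replicate spread. This direction rests on length: the exons of ULBP3 span 988 bases and those of ULBP1 3142, and on the CPM scale ULBP1 was higher, with a log2 ratio ULBP3/ULBP1 of -0.64. ULBP1/ULBP2 was -1.08 ± 0.36 in RPKM and 0.11 without length scaling.

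ULBP1 also exceeded MICA, by 0.64 ± 0.092 on the log2 scale. Over exon length outside other spans the direction turned, to -0.69 ± 0.094. The place of MICA in the order is therefore uncertain. All 3 ULBP genes lie on chromosome 6 (ULBP1 at chr6:149964007-149973710, ULBP2 at chr6:149942000-149949235, ULBP3 at chr6:150063150-150069095) with 0 exon bases inside other spans.

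ULBP2 shares long stretches with neighbours of its own cluster. RAET1L, another NKG2D ligand, matched it at 97.3% of 737 aligned coding bases, with an identical run of 168 bases at coding positions 571 to 738 of both, printed to show what a read cannot tell apart.
ULBP2 and RAET1L: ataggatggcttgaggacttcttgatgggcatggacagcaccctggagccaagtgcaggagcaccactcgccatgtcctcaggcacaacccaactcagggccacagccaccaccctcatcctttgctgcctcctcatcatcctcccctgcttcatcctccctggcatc
RAET1L was listed at 0 reads in each library although 0 of its exon bases lie inside other spans, and RAET1G, the other close relative, had 0, 6 and 0 reads. In ULBP2, 32.2% of 50-base words and 11.9% of 100-base words occurred in transcripts of other genes. For ULBP3 these shares were 12.4% and 6.86%, and for ULBP1 6.85% and 1.15%, with RAET1K as the main match of both. Between ULBP1, ULBP2 and ULBP3 coding identity was 75.2% to 78.1%. How the authors treated reads with several matches is not given in the sources used here, so the split between ULBP2 and RAET1L is uncertain.

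RAET1E, which encodes ULBP4, was listed at 0 reads in each library. All 3004 of its exon bases (chr6:149883375-149898102, minus strand) fall inside the span of the antisense gene RAET1E-AS1, and 2874 inside that of AL355312.5. A count of 0 allows up to 0.110 CPM in replicates 1 and 2 and 0.0862 CPM in replicate 3, for counting error of independent reads only. Of protein-coding genes wholly inside other spans 1.94% were detected, so whether RAET1E is expressed cannot be read from this table. RAET1E-AS1 and AL355312.5 were listed at 0 as well.

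**Figure D2:**
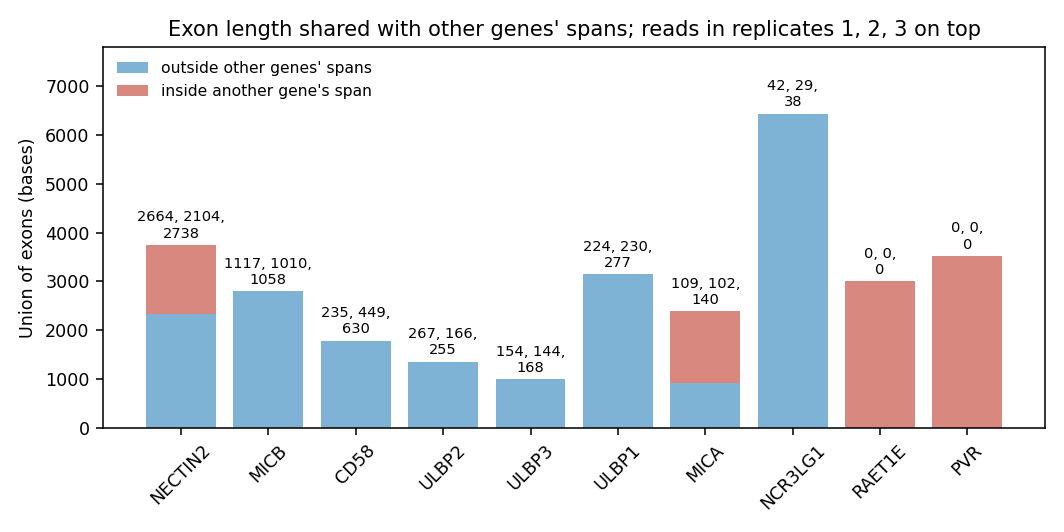
Length of the union of exons of each gene in bases, split into the part outside (blue) and inside (red) the spans of other genes; numbers above the bars are reads in replicates 1, 2 and 3. RAET1E and PVR, both at 0 reads, lie wholly inside other spans, and MICA has 918 bases outside.

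NECTIN2 had the highest measured level of the 8 detected ligands. It had 2664, 2104 and 2738 reads, or 26.2, 20.7 and 21.0 RPKM (22.6 ± 3.09, SD, n = 3). Its level exceeded that of 81.0% of the 10201 detected protein-coding genes. NECTIN2 exceeded MICB in every library, by 0.80 ± 0.157 on the log2 scale or 1.74-fold, past the replicate spread, and by 1.49 over exon length outside other spans. The gene lies at chr19:44846175-44889228 on the plus strand, and 1424 of its 3747 exon bases (38.0%), on its 3′ side, fall inside the span of the antisense gene AC011481.2, which had 14, 8 and 9 reads. Of 6 annotated NECTIN2 transcripts 2 reach into that span. With all of its reads set over the exon length outside that span, NECTIN2 stood at 36.5 ± 4.98 RPKM. A shorter length can only raise this value, so it is no check of the first place of NECTIN2 among the 8.

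PVR, the partner of NECTIN2 as a DNAM-1 and TIGIT ligand, was listed at 0 reads in each library. Its 3519 exon bases (chr19:44643798-44663583, plus strand) lie wholly inside the span of the antisense gene AC243964.2 (chr19:44632199-44718759) and share 0 bases with that gene's exons. AC243964.2 had 57, 66 and 63 reads. Whether PVR is expressed cannot be read from this table, and the ratio NECTIN2/PVR was not formed.

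The other nectins were lower or less uniform. NECTIN1, a cell junction protein and herpesvirus receptor, stood at 1.49 ± 0.327 RPKM with 386, 299 and 322 reads, and NECTIN2 exceeded it 14.4-fold (log2 3.85 ± 0.150, past the replicate spread). NECTIN3, which pairs with NECTIN1 and NECTIN2 across cell contacts, had 682, 1686 and 2129 reads, or 4.06, 10.0 and 9.90 RPKM. Its log2 ratio to NECTIN2 was -1.59 ± 0.93, within the replicate spread, and -1.06 ± 0.030 without replicate 1, past it. It was also past the spread with GC correction, at -1.59 ± 0.459, and over exon length outside other spans, at -2.22 ± 0.926. The length setting shifts this ratio alike in every library, so it is not a separate check. NECTIN4 had 8, 14 and 8 reads and was not detected. CADM1, a nectin-like protein and ligand of the receptor CRTAM, stood at 17.9 ± 1.11 RPKM, and AFDN, which links nectins to actin, at 10.3 ± 2.09 RPKM.

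NCR3LG1 was the lowest of the detected ligands. It had 42, 29 and 38 reads, or 1.55, 1.07 and 1.09 CPM, just above the level that counts as detected, and 0.192 ± 0.042 RPKM (SD, n = 3). It lay below every other detected ligand in every library, with a log2 ratio MICA/NCR3LG1 of 2.59 ± 0.178, or 1.15 with a pseudocount of 1 in place of 0.1. The gene (chr11:17351726-17377341, plus strand) has 6438 exon bases, 0 of them inside other spans, and 0 of its 50-base words occur in other genes' transcripts. BAG6, another described NKp30 ligand and a chaperone of general use, stood at 55.5 ± 12.4 RPKM, and the log2 ratio NCR3LG1/BAG6 was -7.56 ± 0.123. The size of this ratio depends on the pseudocount: with 1 it was -5.55 ± 0.255.

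CD58 was the ligand that differed most between libraries before GC correction, with an SD of 0.572 in its log2 level, and the one that differed least after it, with an SD of 0.029. It had 235, 449 and 630 reads, or 4.85, 9.27 and 10.2 RPKM (8.09 ± 2.84, SD, n = 3), and it lay below ULBP2 and ULBP3 in replicate 1 and above both in replicates 2 and 3. MICB/CD58 was 0.73 ± 0.76 and CD58/ULBP2 0.44 ± 0.89 on the log2 scale, neither past the replicate spread. Without replicate 1 CD58/ULBP2 was 0.95 ± 0.090, from replicates 2 and 3 alone, and past it. With correction for GC content MICB/CD58 was 0.74 ± 0.139 and past it. The gene (chr1:116514535-116571039, minus strand) has 0 of 1783 exon bases inside other spans and no 50-base word shared with other genes. ICAM1, the ligand of the integrin LFA-1 that acts beside CD58 in adhesion, stood at 132 ± 13.8 RPKM, 16.9-fold above CD58 (log2 CD58/ICAM1 -4.08 ± 0.719). Of the ICAM1 exon bases 81.5% lie inside other spans. With all of its reads set over the length outside them, ICAM1 stood at 715 ± 74.7 RPKM and the log2 ratio was -6.51.

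Over the 28 ratios between the 8 detected ligands, 24 were past the replicate spread. The 4 that were not all involved ULBP2, ULBP3 or CD58: MICB/CD58, CD58/ULBP2, CD58/ULBP3 and ULBP2/ULBP3. Of the 7 ratios between neighbours in the order, 4 were past it, NECTIN2/MICB, ULBP3/ULBP1, ULBP1/MICA and MICA/NCR3LG1.

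**Figure D3:**
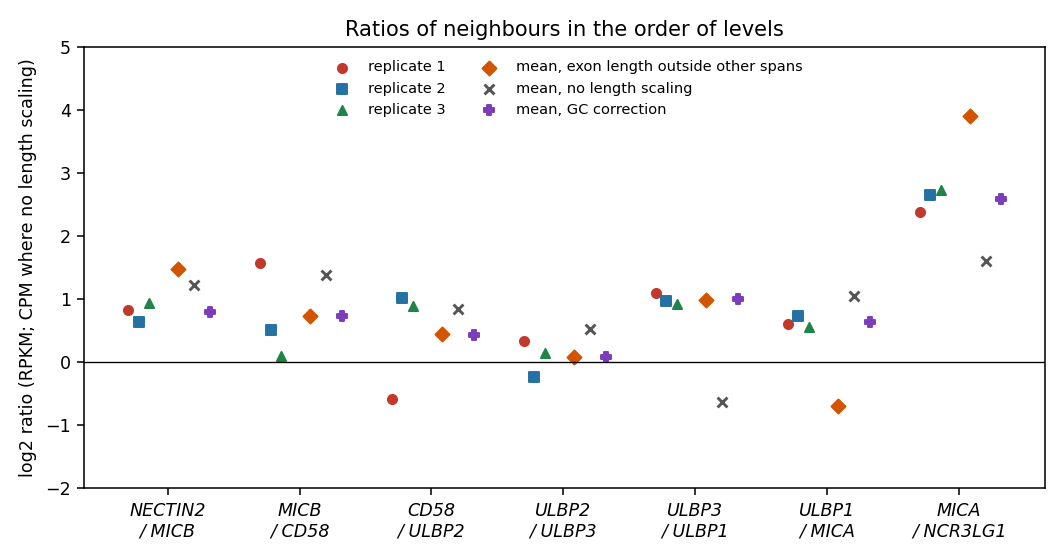
Log2 ratios between neighbours in the order of levels, for each replicate (red, blue and green) and as means under other scalings (orange, exon length outside other spans; grey, no length scaling; purple, GC correction). CD58/ULBP2 lies on both sides of 0, ULBP1/MICA turns to -0.69 over exon length outside other spans, and ULBP3/ULBP1 to -0.64 without length scaling.

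Replicate 1 differed from replicates 2 and 3 by GC content over the whole table, with a median log2 ratio of -1.52 in the lowest of 20 GC bins and 0.41 in the highest. Of the 11266 detected genes 12.8% were more than 2-fold lower in replicate 1 than in the mean of the others, and 0.195% more than 2-fold higher; of the 8 detected ligands 0 were. Of the 8 ligands 7 were higher in replicate 1 to any degree, and 52.9% of all detected genes were. As replicate 1 is a single library, these differences have no replicate check.

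CD58, with the lowest GC content of the ligands at 39.7%, had a log2 ratio of -0.99, beside a median of -1.03 over 868 detected genes within 1 percentage point of its GC content. NECTIN2, at 61.2% GC, stood at 0.33 beside 0.37, and MICB, at 50.7%, at 0.29 beside 0.18. ULBP3, at 55.3%, stood at 0.16 beside 0.32. These 4 lay within the quartiles of genes of like GC content. MICA, at 54.3% GC, stood at 0.045, below its lower quartile of 0.093.

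The remaining ligands lay above genes of like GC content in replicate 1. ULBP2 stood at 0.55 beside a median of -0.0070, higher than 98.0% of 860 such genes, and NCR3LG1 at 0.48 beside -0.011, higher than 97.5% of 876. ULBP1 stood at 0.0066 beside -0.46, higher than 87.0% of 1118 genes. NCR3LG1 rests on 29 to 42 reads, and for ULBP2 replicates 2 and 3 also differed, by 0.26 on the log2 scale. The genes of like GC content were not matched in level. Beside detected genes of like CPM, the coefficient of variation of ULBP2 was 24.5% against a median of 20.1%. That of NCR3LG1 was 21.8% against 19.3%.

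**Figure D4:**
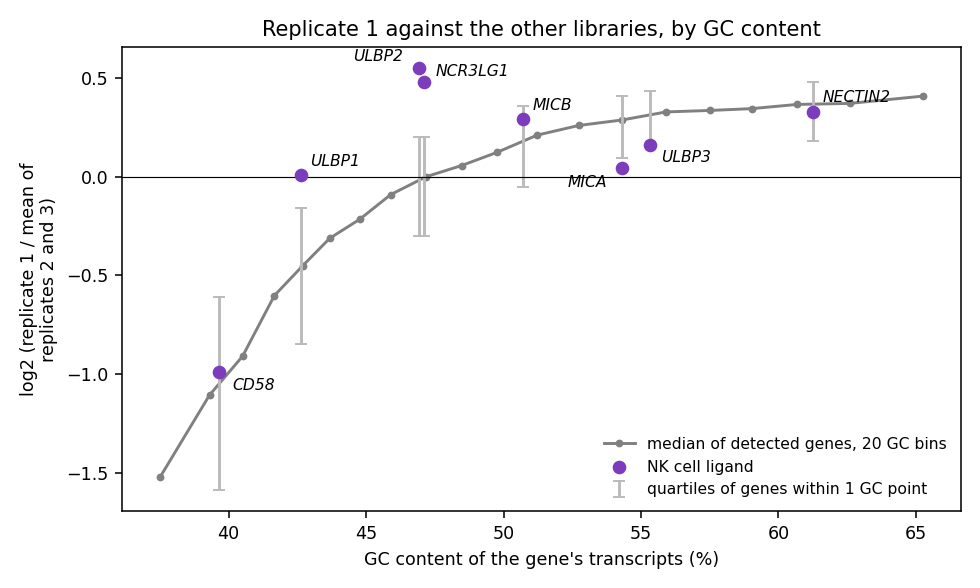
Replicate 1 over the averaged log2 level of replicates 2 and 3, as a log2 ratio, against the GC content of each gene's transcripts; grey points and line are medians of detected genes in 20 bins, grey bars the quartiles of genes within 1 GC percentage point of each ligand, purple points the 8 ligands. CD58 falls with the trend at -0.99, and ULBP2, NCR3LG1 and ULBP1 lie above it.

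The genes that act around these ligands were present to differing degrees. Of the 52 other genes of NK cell recognition examined, 26 were detected, a share near the 51.4% of all protein-coding genes. The 52 include 13 NK receptors, read as a check for NK and T cells. All 26 detected genes were among the other 39. The counts of small groups below are to be read beside the 51.4%. None of the 13 NK receptors was detected, among them KLRK1 (NKG2D), CD226, TIGIT, NCR3 (NKp30) and CD2, and the 13 summed to 1.25 to 1.84 CPM. KLRK1 was listed at 0 with its exons wholly inside other spans, as was PVRIG.

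Of 5 inhibitory ligands 4 were detected, each at a higher measured level than any of the 8 detected activating ligands. RAET1E and PVR, wholly inside other spans, cannot be compared. HLA-E, which engages the inhibitory receptor CD94/NKG2A, stood at 285 ± 42.2 RPKM with no exon base inside other spans, 21.9-fold above MICB. HLA-B and HLA-C, ligands of inhibitory KIR receptors, had means of 470.5 and 636 RPKM, with an uncertain split of reads between HLA genes. Of the HLA-C exon bases 76.9% lie inside other spans. HLA-G had 2, 4 and 3 reads.

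Of the 5 C-type lectin and SLAM ligands, SLAMF7 was detected, at 1.08 ± 0.192 RPKM with 163, 114 and 190 reads. CLEC2D had 6, 16 and 32 reads, and CLEC2B, CD48 and SLAMF6 were listed at 0. Of the CD48 exon bases 94.8% lie inside other spans, so its 0 does not show whether it is expressed. Of the 4 adhesion ligands only ICAM1 was detected, and CD59, with 94.5% of its exon bases inside other spans, had 28, 22 and 20 reads. In the TNF family CD70 stood at 199 ± 42.4 RPKM, TNFSF10 (TRAIL) at 66.6 ± 20.8 and TNFSF9 at 32.7 ± 4.30, and FASLG was listed at 0.

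All 5 genes of shedding and surface handling were detected. PDIA6 (ERp5), a disulphide isomerase that takes part in MICA shedding, stood at 75.4 ± 2.61 RPKM and the membrane protease MMP14 at 37.1 ± 1.73 RPKM. The sheddases ADAM10, with 750, 2589 and 3680 reads, and ADAM17, with 519, 702 and 709, stood at 4.72 ± 2.62 and 2.03 ± 0.333 RPKM. ADAM17/ADAM10 was -0.98 ± 0.93 on the log2 scale, within the replicate spread, and -1.50 ± 0.34 without replicate 1, past it. ADAM9 was lowest in replicate 1, with 1422 reads against 7375 and 11605.

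All 6 genes examined that regulate NKG2D ligands were detected. The transcription factors E2F1 and HSF1 had means of 59.9 and 23.9 RPKM. The DNA damage kinases ATM and ATR were lower, at 0.359 ± 0.259 and 2.92 ± 1.73 RPKM, and ATM had 40, 317 and 442 reads. Both were lowest in replicate 1, with log2 ratios to the other libraries of -2.96 and -2.05. Their GC contents are 39.3% and 39.5%, and with GC correction the ratios were -1.90 and -0.99.

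By distance of log2 RPKM over the 3 libraries, the gene of these lists nearest to NECTIN2 was HSF1 (distance 0.165), that nearest to CD58 was NECTIN3 (0.278) and that nearest to MICA was NECTIN1 (0.491). MICB was nearest to AFDN (0.912) and ULBP1 to ADAM17 (0.689), while ULBP2, ULBP3 and NCR3LG1 had their nearest genes at distances of 1.64, 1.43 and 0.942. With 3 libraries of 1 condition, nearness describes like levels in these libraries.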

How the data were processed

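Poly(A) RNA of 3 libraries was sequenced after directional library preparation, per the labels' protocols. FastQC, cutadapt 1.18, HISAT2 2.1.0 and featureCounts 2.0.0 with hg38 are named in the submitters' processing notes; which annotation release, strandedness and feature type served for counting is not stated there. Each deposited value is a signal that the authors made by dividing gene counts by a size factor per library, as read from the values: 100% of nonzero values in each library were whole multiples of 1 read within 0.01 of a read. The design assumed counts, and the recovered reads (factors 0.946, 0.971 and 1.24) were used. More genes had 2 reads than 1 (1621 against 269 in replicate 1), so reads are not independent molecules and floors cover counting error only.

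Reads were scaled with TMM (edgeR 4.0.16, R 4.3.3; DESeq2 1.42.0 size factors as an alternative). Gene IDs were matched without version to GENCODE 29 (GRCh38; 96.3% matched, 99.9% of reads), which need not be the authors' release, for exon length, spans and GC content. Log2 values used a pseudocount of 0.1; a ratio was formed where each gene reached 10 reads in a library and had none at 0. With 1 group no test between groups was possible. The scaling and GC correction were tested on simulated data, and the motif search on short made-up sequences. Promoters came from RefSeq (GRCh38.p14; 10 of 10 symbols matched). The ligands, gene lists, 12 pairs (10 formed) and naming rule (all ligands, the fixed lists, the nearest list gene and genes overlapping a ligand) were chosen with earlier results of these data known; some genes of the lists are not reported here but count in the totals, and RAET1K was named after its values were seen. Alternatives were other scaling, length, GC, pseudocount and detection settings and leaving out each replicate.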

Additional observations from a re-analysis of the deposited data

How the results depend on the processing

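The number of detected ligands was 8 at 0.1 CPM, 10 reads or 1 read, with DESeq2 size factors and without any single replicate. At 10 CPM it was 2. Leaving out the ligands covered by other spans could not change the count, as these are RAET1E and PVR, both listed at 0. Of the neighbours in the order, ULBP1/MICA reversed to -0.69 over exon length outside other spans and was 0.64 but within the replicate spread with GC correction; ULBP3/ULBP1 reversed to -0.64 without length scaling; MICB/CD58 passed the spread with GC correction at 0.74. Leaving out 1 replicate, CD58/ULBP2 ranged from 0.16 to 0.95, passing the spread only without replicate 1, and ULBP2/ULBP3 from -0.045 to 0.24, negative only without replicate 1. Among the fixed pairs, ULBP1/ULBP2 reversed to 0.11 without length scaling and ULBP3/ULBP2, the inverse, ranged from -0.24 to 0.045. CD58/NECTIN2 was -1.53, and -1.72 and -1.78 without replicates 2 and 3, where it no longer passed; ULBP2/MICA fell to 0.39 over exon length outside other spans and no longer passed. Against replicate 3 alone, 1 ligand (CD58, -1.06) was more than 2-fold lower in replicate 1, against 0 in the mean of both. NECTIN3/NECTIN2 passed the spread at -2.22 over exon length outside other spans, at -1.59 with GC correction and at -1.06 without replicate 1, and MICB/MICA and CD58/ICAM1 moved to 1.56 and -6.51 over that length. A pseudocount of 1 moved 4 of 8 ligand levels by more than 1 SD and changed no call among neighbours or pairs, with MICA/NCR3LG1 at 1.15, NECTIN2/NECTIN1 at 3.24 and NCR3LG1/BAG6 at -5.55. The causes were not tested. No paired analysis was possible because the study has 1 group. Depth limits NCR3LG1 most, at 29 to 42 reads.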
